A study of Bos taurus with 8 samples.

Results

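The FOS family (FOS, FOSB, FOSL1, FOSL2), the JUN family (JUN, JUNB, JUND) and the EGR family (EGR1, EGR2, EGR3) were followed in the small (SLC) and the large (LLC) luteal cells of the bovine corpus luteum. These 10 genes were taken by name, as the transcript clusters of the array whose only gene symbol is one of them. No cutoff on a measured value was applied, but earlier results of these data were known when they were chosen. All 10 were found, each as 1 cluster, among the 18087 gene symbols of the table. SLC and LLC (4 samples each) were primary cells from mature corpora lutea of lactating Holstein cows. The cows had been synchronised with the prostaglandin F2alpha analogue cloprostenol and received no further treatment. The corpora lutea were taken in the middle of the estrus cycle that followed this injection. After collagenase digestion and a Percoll gradient, both cell types were stained with the DNA dye Hoechst and separated by FACS, so all 8 samples share this dissociation. Age, and whether a sample came from 1 cow or several, are not given in the sources used here, and the p-values measure the spread between the samples as labelled, biological replicates 1 to 4 of each cell type. The unit throughout is the log2 signal that the authors obtained by RMA from Affymetrix Bovine Gene 1.0 ST arrays, so that a difference of 1 is a fold of 2. Differences are LLC minus SLC.

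FOS and JUN proteins carry a leucine zipper and pair with each other to form the transcription factor AP-1. JUN proteins can also pair among themselves, whereas FOS proteins need a partner. EGR proteins are zinc finger factors that bind GC-rich promoter sites. Most of these genes are immediate-early genes, whose transcription rises without new protein synthesis when kinases activate factors such as SRF, ELK1 and CREB already present in the cell. In luteal cells of several species they are known to respond to prostaglandin F2alpha and to luteinizing hormone, and in many tissues they also respond to the enzymatic release of cells.

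The arrays of one cell type resembled each other more than arrays of different types, with Pearson's r across clusters of 0.989 to 0.991 within SLC, 0.978 to 0.986 within LLC and 0.949 to 0.977 between them. The markers of large luteal cells fitted the labels, and those of small luteal cells did so in part. All 5 markers of large luteal cells (OXT, PTGFR, NR5A2, FST, CYP19A1) were higher in LLC by 2.92 to 4.70. INSL3, PDGFRA and NR2F2 of the 5 markers of small luteal cells were higher in SLC, and PDGFRA is also on the fibroblast list. LHCGR (difference -1.17) and CYP17A1 (-0.045) were not called. CYP17A1 was higher on LLC replicates 3 and 4 (4.74 and 4.59) than on any SLC array. Genes of steroid synthesis, which both cell types carry out, had a list mean of 10.83 to 10.97 in SLC and 11.27 to 11.33 in LLC, and 2 of 4 measured were higher in LLC. Of the markers of other cells, 9 of 10 for macrophages, 6 of 8 for endothelial cells, 6 of 6 for fibroblasts, 2 of 6 for pericytes and smooth muscle, 1 of 4 for lymphatic endothelium and 1 of 5 for lymphocytes were called higher in SLC. Of 3 granulocyte markers, 0 were called higher in SLC and 1 higher in LLC, with differences from -0.05 to 0.45. The list mean for macrophages was 5.26 to 5.65 on the SLC arrays and 3.23 to 3.85 on the LLC arrays, and for fibroblasts it was 9.76 to 10.2 and 7.68 to 8.84. The lymphocyte markers CD3D, CD2 and CD79A and the granulocyte markers S100A8 and CSF3R had means below the background limit in both cell types, and the macrophage marker MSR1 and the lymphocyte marker NKG7 in LLC. This limit, 2.28 in SLC and 2.38 in LLC, is the 95th percentile of 718 olfactory receptor genes. Each sample is bulk RNA, so fewer cells of a type and less RNA per cell cannot be told apart. The part of macrophages, fibroblasts and endothelial cells in the results below was not tested.

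Of the 10 genes, FOSB, JUND and JUN were higher in SLC and no gene was higher in LLC, at a limma adjusted p under 0.05. Over all 24415 clusters, 10.2% were called higher in SLC and 9.64% higher in LLC under the same rule. FOSB alone also differed by more than 2-fold, the filter of the study's methods, which 3.07% of clusters passed in that direction. In 9 of the 10 genes the mean was lower in LLC, as it was in 47.2% of all clusters, and FOSL2 was the exception. The median difference over the 10 genes was -0.34, against 0.01 over all symbols. In 2 genes, FOSB and JUND, all 4 SLC arrays lay above all 4 LLC arrays, which held for 11.3% of all clusters, and in the other 8 genes the cell types overlapped. The unadjusted p was under 0.05 for 5 genes, the 3 called together with JUNB and EGR1.

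**Figure D1:**
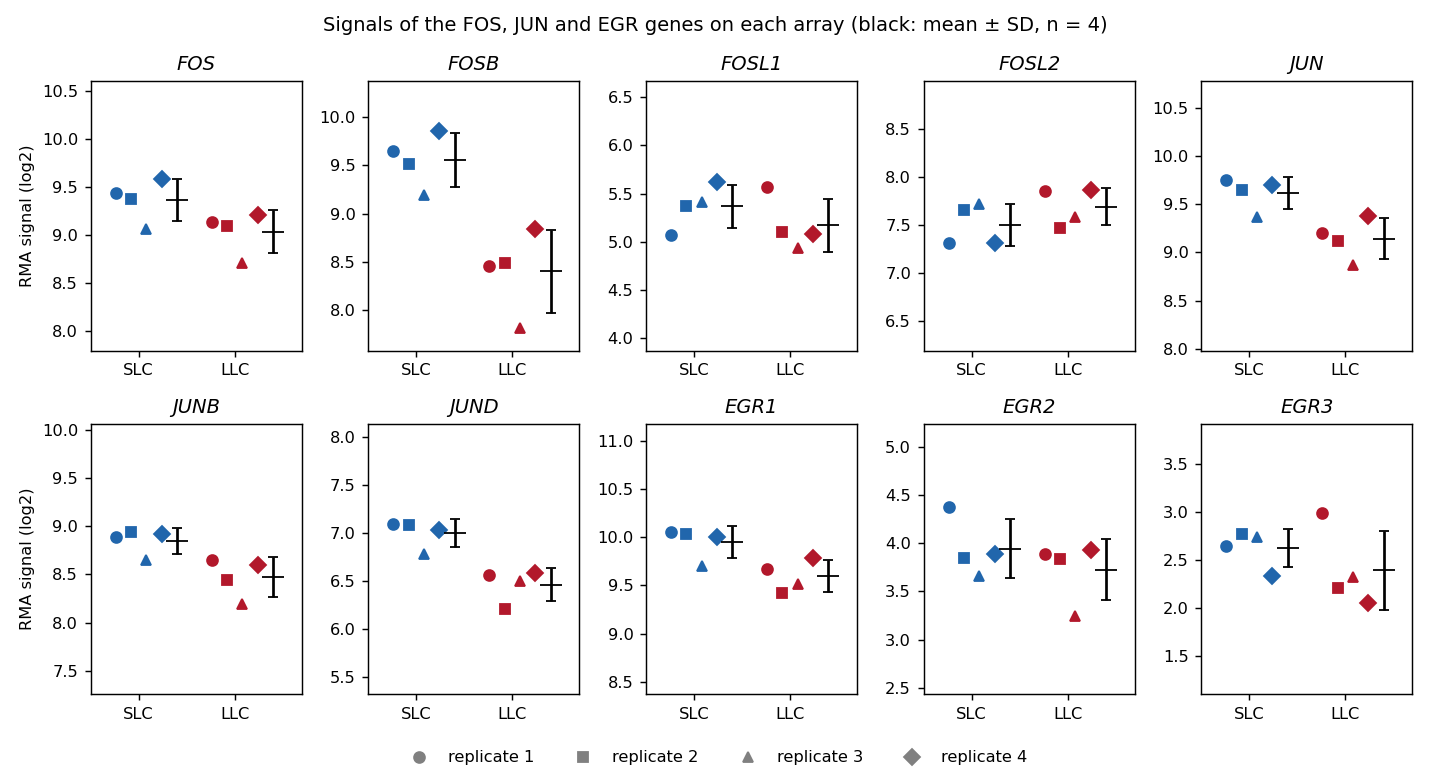
Log2 RMA signal (vertical axes, each spanning the same number of units) of the 10 genes on the 4 SLC arrays (blue) and the 4 LLC arrays (red), with the replicate number as the shape of the point and the mean ± SD in black. FOSB (9.19 to 9.86 in SLC, 7.81 to 8.84 in LLC) and JUND show no overlap between the cell types, and in many panels the triangle of replicate 3 is the lowest point of its cell type.

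FOSB had the largest difference of the 10 genes. FosB protein is an AP-1 subunit with a strong activation domain, and its messenger is known for its rapid and short induction. Its signal was 9.65, 9.51, 9.19 and 9.86 on SLC arrays 1 to 4 and 8.46, 8.49, 7.81 and 8.84 on LLC arrays 1 to 4. The lowest SLC array thus stood above the highest LLC array. The means were 9.55 ± 0.28 (SD, n = 4) in SLC and 8.40 ± 0.43 in LLC. The difference of -1.15 (SE 0.22, 95% confidence interval -1.63 to -0.67, limma adjusted p = 0.00492) corresponds to a 2.22-fold higher signal in SLC, and 2.40% of all clusters had a lower difference. FOSB was called in 18 of 18 alternative analyses, with differences between -1.30 and -0.96. The smallest of them came without LLC replicate 3, the array of lowest FOSB signal, where the fold was no longer above 2.

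FOS, the prototype of the family, did not pass the test. On the SLC arrays its signal was 9.44, 9.37, 9.06 and 9.58, and on the LLC arrays 9.13, 9.09, 8.71 and 9.21. SLC replicate 3 lay below 3 of the 4 LLC arrays, and the other SLC arrays lay above all of them. The means were 9.36 ± 0.22 (SD, n = 4) and 9.04 ± 0.22, a difference of -0.33 (SE 0.15, limma adjusted p = 0.162). Its 95% confidence interval reached from -0.66 to 7.65e-05, and in the alternative analyses the adjusted p stayed between 0.0738 and 0.354.

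FOSL1 and FOSL2 encode Fra-1 and Fra-2, which lack the strong activation domain of FOS and FOSB and usually appear later after a stimulus. FOSL1 ranged from 5.07 to 5.62 in SLC and from 4.93 to 5.57 in LLC, with means of 5.37 ± 0.23 (SD, n = 4) and 5.17 ± 0.28. The cell types overlapped over almost their whole range. The difference was -0.20 (SE 0.16, 95% confidence interval -0.56 to 0.16, limma adjusted p = 0.479), and it ranged from -0.33 without LLC replicate 1 to -0.11 without SLC replicate 4. FOSL2 had signals of 7.31, 7.65, 7.72 and 7.31 in SLC and 7.85, 7.47, 7.58 and 7.86 in LLC. SLC replicates 1 and 4 were its lowest arrays and LLC replicates 1 and 4 its highest. The means, 7.50 ± 0.22 and 7.69 ± 0.20, differed by 0.19 (SE 0.14, 95% confidence interval -0.12 to 0.51, limma adjusted p = 0.418).

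Of the JUN family, JUND and JUN were called and JUNB was just above the threshold. JUND, which in most tissues is expressed without a stimulus and binds menin, had signals of 7.09, 7.08, 6.78 and 7.03 in SLC and 6.56, 6.21, 6.50 and 6.58 in LLC. SLC replicate 3 was its lowest SLC array and still lay above all LLC arrays. The means of 7.0 ± 0.15 (SD, n = 4) and 6.46 ± 0.17 differed by -0.53 (SE 0.12, 95% confidence interval -0.80 to -0.26, limma adjusted p = 0.0120), or 1.45-fold. JUND was called in 18 of 18 alternative analyses, with adjusted p between 0.00873 and 0.0387.

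JUN, the main partner of FOS proteins and a target of JUN N-terminal kinases, had signals of 9.75, 9.65, 9.37 and 9.70 in SLC and 9.20, 9.12, 8.87 and 9.38 in LLC. The cell types overlapped by a single pair of arrays, since SLC replicate 3 lay just below LLC replicate 4. The means were 9.62 ± 0.17 (SD, n = 4) and 9.14 ± 0.21. The difference of -0.48 (SE 0.13, 95% confidence interval -0.77 to -0.18, limma adjusted p = 0.0318) corresponds to 1.39-fold. The call for JUN held in 9 of 18 alternative analyses. Without SLC replicate 1, 2 or 4 the adjusted p was 0.0895, 0.0769 and 0.0875, and without LLC replicate 1, 2 or 3 it was 0.0542, 0.0698 and 0.0757. Without SLC replicate 3 or LLC replicate 4 it was 0.0243 and 0.0162.

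JUNB, which can act against JUN on some promoters, had signals of 8.89, 8.94, 8.65 and 8.92 in SLC and 8.65, 8.44, 8.19 and 8.60 in LLC. SLC replicate 3 and LLC replicate 1 shared a value, and the other SLC arrays lay above all LLC arrays. The means were 8.85 ± 0.13 (SD, n = 4) and 8.47 ± 0.21, and the difference was -0.38 (SE 0.13, 95% confidence interval -0.66 to -0.10, limma adjusted p = 0.0619). The adjusted p fell under the threshold in 3 alternatives. It was 0.0456 with dim clusters left out, 0.0473 with an intensity trend and 0.0444 with array weights.

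**Figure D2:**
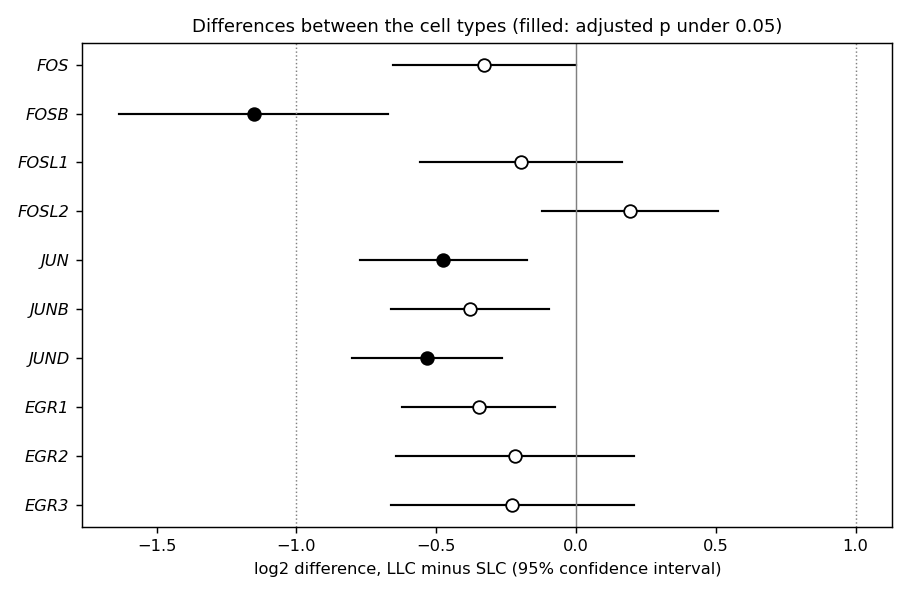
Difference in log2 signal, LLC minus SLC (horizontal axis), for the 10 genes, with 95% confidence intervals of the limma fit as bars and a filled point at an adjusted p under 0.05. The interval of FOSB (-1.63 to -0.67) is the only one that crosses the dotted line of a 2-fold difference, and the intervals of FOS, FOSL1, FOSL2, EGR2 and EGR3 include 0.

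EGR1 was lower in LLC on average, without passing the test. It is known as a rapid response gene to growth factors and to luteinizing hormone. Its signals were 10.06, 10.03, 9.70 and 10 in SLC and 9.67, 9.42, 9.52 and 9.79 in LLC. SLC replicate 3 stood apart from the other SLC arrays, below LLC replicate 4. The means of 9.95 ± 0.17 (SD, n = 4) and 9.60 ± 0.16 differed by -0.35 (SE 0.12, 95% confidence interval -0.62 to -0.07, limma adjusted p = 0.0764). EGR1 was called in only 2 of 18 alternative analyses, each with a single array left out. The limma adjusted p was 0.0419 (difference -0.43) without SLC replicate 3 and 0.0440 (difference -0.41) without LLC replicate 4.

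EGR2 and EGR3, related factors known from nerve, muscle spindle and lymphocyte development, lay closer to background. EGR2 had signals of 4.38, 3.85, 3.66 and 3.89 in SLC and 3.89, 3.84, 3.25 and 3.93 in LLC, with means of 3.95 ± 0.31 (SD, n = 4) and 3.73 ± 0.32. Apart from a high SLC replicate 1 and a low LLC replicate 3, the arrays of the cell types were interleaved. The difference was -0.22 (SE 0.19, 95% confidence interval -0.64 to 0.21, limma adjusted p = 0.515). It was -0.06 without LLC replicate 3 and -0.07 without SLC replicate 1. EGR3 had signals of 2.65, 2.77, 2.74 and 2.34 in SLC and 2.99, 2.21, 2.33 and 2.06 in LLC. No SLC array but 3 of the 4 LLC arrays lay under the background limit of their cell type, so the level in LLC is only poorly measured. The difference of -0.23 (SE 0.20, 95% confidence interval -0.66 to 0.21) had a limma adjusted p of 0.503 and is not a well measured size. It was -0.10 (adjusted p = 1) with low signals held at the limit, -0.43 (adjusted p = 0.0629) without LLC replicate 1 and -0.12 (adjusted p = 0.753) without LLC replicate 4.

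Whether relatives shifted by unequal amounts was asked of the log2 ratio of 2 members within each array, for all 12 pairs inside a family. Signals of different probes do not share a scale, so these ratios are compared only between cell types, and their absolute level has no meaning. No pair passed after adjustment over the 12. A two-sided exact permutation test of 4 arrays against 4 has 70 regroupings and cannot give less than p = 0.0286, so an adjusted p under 0.05 over 12 pairs requires that most pairs reach this minimum.

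The log2 ratio of FOSB over FOS was 0.21, 0.14, 0.13 and 0.28 on the SLC arrays and -0.67, -0.60, -0.90 and -0.37 on the LLC arrays. The ratios of the cell types did not overlap, and those of SLC lay close together. The means of 0.19 ± 0.07 (SD, n = 4) and -0.64 ± 0.22 differed by -0.83 (exact permutation p = 0.0286, adjusted p = 0.114). FOSL2 over FOSB was -2.55 to -1.47 in SLC and -1.02 to -0.23 in LLC, a difference of 1.35 with the same exact permutation p and adjusted p. FOSL1 over FOSB was -4.58 to -3.78 in SLC and -3.76 to -2.88 in LLC, a difference of 0.96, again at p = 0.0286 (adjusted p = 0.114) in the exact permutation test. All 3 of these pairs hold FOSB, so they are not independent of each other. FOSL2 over FOS (difference 0.52) and FOSL2 over FOSL1 (0.39) overlapped between the cell types, both with an exact permutation p of 0.0857 (adjusted p = 0.206).

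The ratios among the JUN genes and among the EGR genes overlapped between the cell types. JUNB over JUN differed by 0.10 (exact permutation p = 0.171), JUND over JUN by -0.06 (p = 0.686) and JUND over JUNB by -0.15 (p = 0.229). On the SLC arrays these ratios were tight, with JUND over JUNB between -1.89 and -1.80, and on the LLC arrays they spread from -2.23 to -1.69. For the EGR genes the ratios differed by 0.13 for EGR2 over EGR1 (exact permutation p = 0.486), by 0.12 for EGR3 over EGR1 (p = 0.686) and by -0.01 for EGR3 over EGR2 (p = 1). The EGR3 ratios rest on signals near background.

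**Figure D3:**
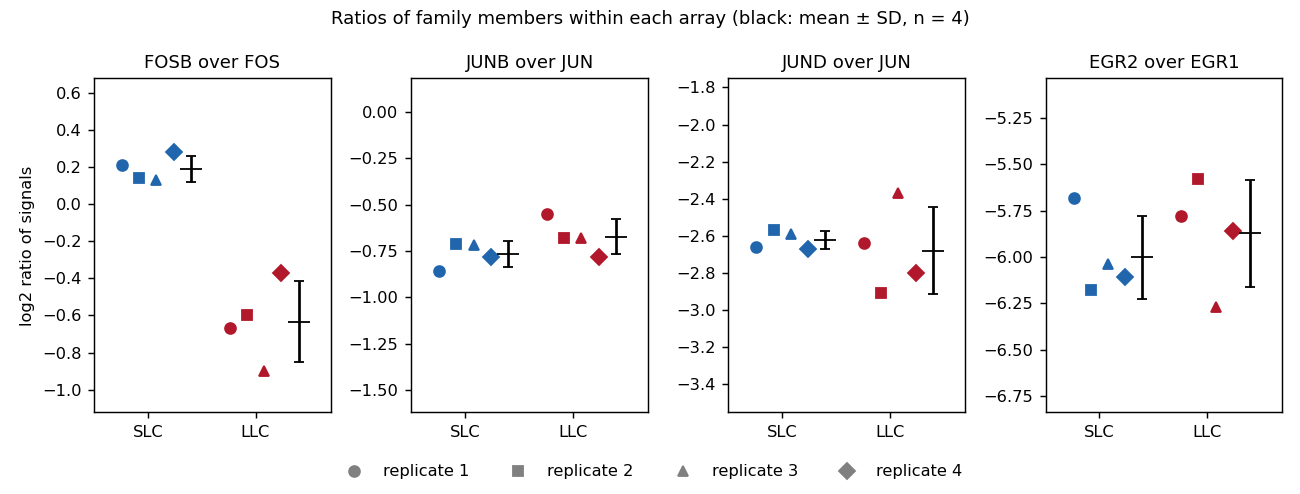
Log2 ratio of 2 family members within each array (vertical axes) for 4 of the 12 pairs, in SLC (blue) and LLC (red), with the mean ± SD in black. FOSB over FOS lies between 0.13 and 0.28 in SLC and between -0.90 and -0.37 in LLC, and the other 3 ratios overlap between the cell types.

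Within a cell type, several of the genes were high or low on the same arrays. SLC replicate 3 was the lowest SLC array for 7 of the 10 genes (FOS, FOSB, JUN, JUNB, JUND, EGR1, EGR2), where it was the lowest for 26.7% of all clusters. LLC replicate 3 was the lowest LLC array for 6 (FOS, FOSB, FOSL1, JUN, JUNB, EGR2), against 21.9% of clusters. LLC replicate 4 was the highest for 7 (FOS, FOSB, FOSL2, JUN, JUND, EGR1, EGR2), against 27.2%. On average over the 10 genes, SLC replicate 3 deviated by -0.15 and LLC replicate 3 by -0.24 from the mean of its own cell type, and LLC replicates 1 and 4 by 0.19 and 0.12.

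FOSB showed the widest of these shifts among the genes of the FOS and JUN families, with deviations of -0.36 on SLC replicate 3 and -0.59 and 0.44 on LLC replicates 3 and 4. Its SD was larger than that of 85.4% of clusters in SLC and of 90.4% in LLC. FOSL2 ran the other way in SLC, where replicate 3 was its highest array (deviation 0.22). The spread of EGR3 in LLC came mainly from replicate 1, at 0.59 above the mean of that cell type. The other LLC signals of EGR3 lay under the background limit.

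The mean of the endothelial marker list was also lowest on the arrays of replicate 3, though in SLC not for every marker. It was 6.68, 7.10, 6.55 and 7.24 on the SLC arrays and 5.83, 6.09, 4.64 and 6.04 on the LLC arrays. The means of the macrophage list did not follow this order, with 5.63, 5.65, 5.32 and 5.26 on the SLC arrays and 3.85, 3.56, 3.31 and 3.23 on the LLC arrays. The fibroblast list was second highest on SLC replicate 3 (10.1) and second lowest on LLC replicate 3 (7.75). The list of pericytes and smooth muscle was second lowest on SLC replicate 3 (5.82) and lowest on LLC replicate 3 (4.43). LLC replicate 4 had the lowest LLC mean of the large luteal cell list (8.43, against 9.01 to 9.28 on the other LLC arrays). It had the highest LLC mean of the small luteal cell list (6.34, against 5.28 to 6.12). The same held for the lymphatic endothelial list (6.8, against 5.4 to 5.5). The part of all these cell types in the spread of the FOS, JUN and EGR genes was not tested.

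**Figure D4:**
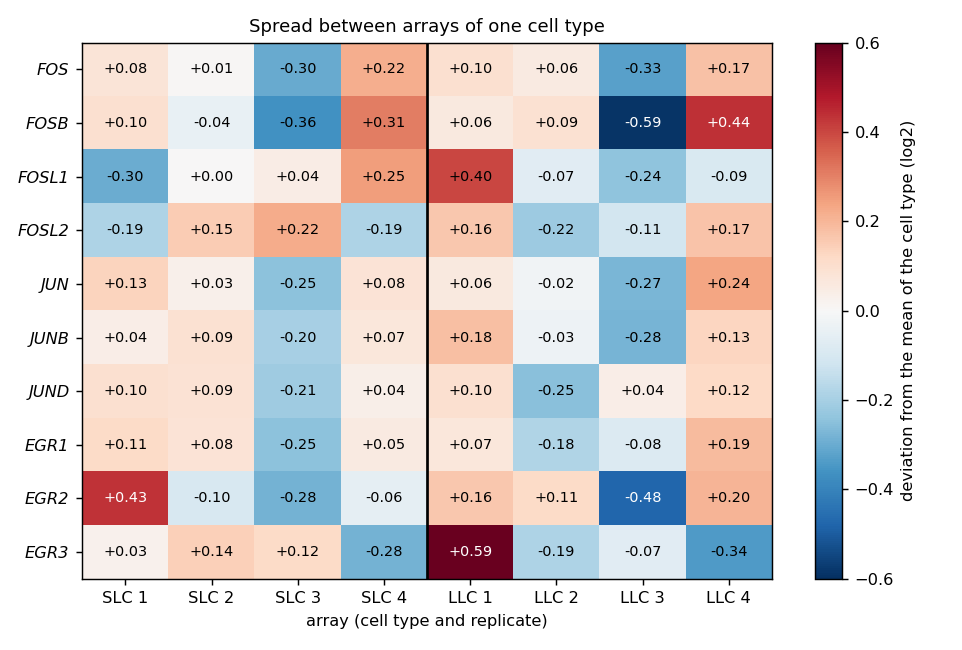
Deviation of each array from the mean of its own cell type, in log2 units (colour scale and printed values), for the 10 genes (rows) on the 8 arrays (columns). SLC 3 and LLC 3 are mostly blue, with -0.36 and -0.59 for FOSB, while LLC 4 is the highest LLC array for 7 genes.

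Genes whose course over the 8 arrays lay nearest to a member were sought among 12494 genes with a mean above the background limit, by the root mean square difference of the centred log2 signals. DNPEP, which encodes an aspartyl aminopeptidase, was nearest to EGR1 (0.0298), followed by ARHGEF15 (0.0398) and IFT43 (0.0714). The homeobox gene HLX was nearest to JUND (0.0473), with the chromatin organiser SATB1 (0.0783) and the zinc finger gene TRPS1 (0.0835) next. CGAS, of the cytosolic DNA sensor, was nearest to JUN (0.0684) and PRPSAP1 nearest to FOS (0.0766). FOSB had no neighbour as near, with TCN2, of the vitamin B12 carrier transcobalamin, at 0.110, the ETS repressor gene ERF at 0.133 and the endothelial adhesion gene ESAM at 0.148. These genes share the direction of the difference with their member (ESAM -1.22, ERF -0.96, TCN2 -1.04), since the measure holds it. The measure is not scaled to the range of a gene, and FOSB had the largest difference of the members. Its larger distances therefore do not show a more isolated course. Of the neighbours of JUN, JUND and EGR1 with a call of their own, CGAS, WASF3, ZNRF1, HLX and IFT43 lost it when 1 of several arrays was left out, as JUN did.

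The wider pathway was described through 8 lists, set with earlier results of these data known. They hold 120 distinct measured genes besides the 10. Of these, 53 were called higher in SLC and 8 higher in LLC (limma adjusted p under 0.05), with a median difference of -0.46. Over all clusters 10.2% were called higher in SLC and 9.64% higher in LLC, which is the background for each list below. The partners that FOS and JUN proteins can pair with were split, and the count was unstable. Of 13 measured genes of the ATF, BATF, JDP2 and MAF groups, 4 were called higher in SLC and 0 in LLC, and the median was -0.09. MAFF, a small MAF protein without an activation domain, had a mean of 3.83 in SLC and 3.06 in LLC (difference -0.77, SE 0.18, limma adjusted p = 0.0151). ATF4, a factor of the response to amino acid and endoplasmic reticulum stress, differed by -0.69 (adjusted p = 0.0175), MAFK by -0.47 (adjusted p = 0.0382) and MAF by -0.45 (adjusted p = 0.0360). The list count was 0 in the analysis without variance moderation and in that with low signals held at the limit. Without SLC replicate 1 or 4 it was 1, and without SLC replicate 2 or 3 or LLC replicate 1 or 3 it was 2. ATF4 lost its call without SLC replicate 1 or 4 (adjusted p = 0.0521 and 0.0518), MAFK when any 1 SLC array or LLC replicate 1 or 3 was left out (0.0501 to 0.101), and MAF when any 1 array other than LLC replicate 4 was left out (0.0537 to 0.0903).

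The EGR relatives and coregulators went both ways. NAB2, a corepressor that EGR1 itself induces, had signals of 4.02, 3.67, 3.46 and 3.89 in SLC and 3.24, 3.12, 2.82 and 2.71 in LLC. All SLC arrays lay above all LLC arrays, and the difference was -0.79 (SE 0.16, limma adjusted p = 0.00708). SP1, a factor that shares GC-rich sites with EGR1, differed by -0.62 (SE 0.11, adjusted p = 0.00377), and WT1, a zinc finger factor with a similar binding site, by -0.42 (adjusted p = 0.0412). WT1 was over the threshold in 11 of 18 alternatives, among them those without SLC replicate 1, 2 or 4 or LLC replicate 2, 3 or 4 (adjusted p = 0.0665 to 0.112).

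EGR4 was the only gene of the EGR family with a higher mean in LLC. Its signals were 4.33, 2.91, 2.91 and 2.59 in LLC and 1.78, 1.41, 1.26 and 1.7 in SLC. All 4 SLC arrays lay under the background limit and all 4 LLC arrays above it, LLC replicate 1 by far the most. The difference of 1.65 (SE 0.33, limma adjusted p = 0.00657) is therefore not a measured size. With signals held at the limit of 2.38, the mean of EGR4 was 1.75-fold higher in LLC, which did not pass the test (limma adjusted p = 0.255).

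Kinases and factors upstream of the immediate-early genes showed no common direction. Of 23 measured, 3 (13.0%) were called higher in SLC and 3 higher in LLC, and the median was close to 0 (-0.0025). Both counts are near the 10.2% and 9.64% of all clusters. MAPK3, which encodes the kinase ERK1, differed by -0.66 (SE 0.11, limma adjusted p = 0.00231), ELK3, an ETS partner of SRF, by -1.34 (adjusted p = 0.0186) and MRTFB, an SRF coactivator, by -0.43 (adjusted p = 0.0209). CREM, a relative of CREB that in part represses cAMP response genes, was higher in LLC on every array, with 5.41, 5.50, 5.49 and 5.13 against 4.49, 4.50, 4.32 and 4.84 in SLC (difference 0.85, SE 0.14, adjusted p = 0.00230). The kinase genes BRAF (0.36) and MAPK8 (0.38) were also higher in LLC. The SLC count was 1 without SLC replicate 4. ELK3 lost its call without SLC replicate 2 or 4 (adjusted p = 0.0546 and 0.0551). MRTFB (0.0548 to 0.0574), BRAF (0.0535 to 0.0711) and MAPK8 (0.0646 to 0.0815) each lost theirs without SLC replicate 1, 3 or 4 or LLC replicate 3, MRTFB also without LLC replicate 2 and BRAF also without LLC replicate 1.

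The other immediate-early genes were mostly higher in SLC. Of 32 measured, 20 were called higher in SLC and 1 higher in LLC, 28 had a lower mean in LLC, and the median was -0.77, against -0.34 for the 10 FOS, JUN and EGR genes. CEBPD, a factor of the acute phase response, differed by -0.97 (SE 0.13, limma adjusted p = 0.00103). IER3, which limits cell death, differed by -0.98 (adjusted p = 0.00109), the orphan nuclear receptor gene NR4A3 by -0.96 (adjusted p = 0.00139) and TNFAIP3, a brake on NF-κB, by -1.17 (adjusted p = 0.00143). Each of the 4 was called in 18 of 18 alternatives, with all SLC arrays above all LLC arrays. NR4A3 was even across LLC, at 5.10, 5.10, 5.14 and 5.15, and varied in SLC, at 6.32, 6.17, 5.66 and 6.18, with replicate 3 lowest as for FOS and EGR1. ARC, known from synapses, was the gene higher in LLC (0.76, adjusted p = 0.0228, and 0.0579 to 0.0663 without SLC replicate 1 or 2). The mean of the whole list was lowest on replicate 3 of both cell types (6.88 in SLC and 5.96 in LLC). Without variance moderation the SLC count was 12.

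Feedback regulators, which are induced with the immediate-early genes and shut them off again, shared this direction. Of 12 measured, 9 were called higher in SLC and 0 higher in LLC, and the median was -0.66. ZFP36L2 (-1.21, SE 0.17, limma adjusted p = 0.00134) and ZFP36L1 (-0.99, SE 0.19, adjusted p = 0.00563) encode proteins that speed the decay of AU-rich messengers. SPRY2 (-0.93, adjusted p = 0.00759) and SPRED1 (-0.73, adjusted p = 0.0148) encode inhibitors of the RAS and ERK pathway. The count was 5 without SLC replicate 4, and 4 without variance moderation or with low signals held at the limit.

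**Figure D5:**
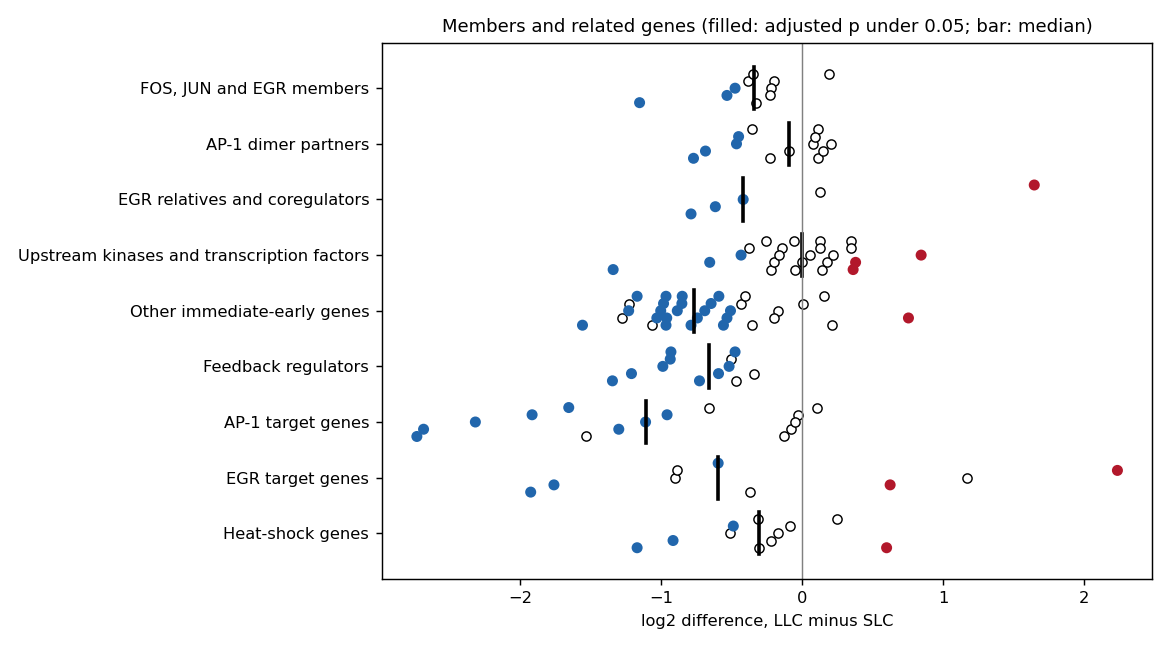
Difference in log2 signal, LLC minus SLC (horizontal axis), of the 10 genes and of the measured genes of each of the 8 lists (rows), with filled points at an adjusted p under 0.05 (blue higher in SLC, red higher in LLC) and the median as a bar. The medians run from -0.0025 for upstream kinases and factors to -1.11 for AP-1 target genes, and the red points include EGR4, CREM, ARC and VEGFA.

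Of 15 measured genes known as AP-1 targets, 8 were called higher in SLC and 0 higher in LLC, and the median was -1.11. The protease genes MMP3 and MMP13, among the 7 not called, lay below the background limit on all 8 arrays, so no difference can be read for them. The chemokine gene CCL2 had signals of 8.92, 8.97, 8.82 and 8.44 in SLC and 7.0, 6.33, 5.85 and 5.04 in LLC. The LLC arrays lay all below the SLC arrays and far apart from one another. The difference of -2.73 (SE 0.34, limma adjusted p = 0.000761) compares with -2.69 (adjusted p = 0.00199) for the neutrophil chemokine gene CXCL8, -1.92 (adjusted p = 0.000787) for PLAU, of urokinase, and -1.66 (adjusted p = 0.00104) for CD44, of a hyaluronan receptor. The rest of those not called are named after their values had been seen. The intermediate filament gene VIM differed by -0.13, the protease inhibitor gene TIMP1 by 0.11 and MMP1 by -0.075. MMP9 differed by -0.66 (limma adjusted p = 0.219) and SPP1 by -1.53 (limma adjusted p = 0.0592). Several of the shifted genes are also expressed by macrophages, fibroblasts or endothelial cells, whose markers were higher in SLC as given above, and this was not tested.

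Genes known as EGR1 targets did not share a direction. Of 9 measured, 3 were called higher in SLC and 2 higher in LLC, and the median was -0.60. The angiogenic growth factor gene VEGFA had signals of 10.03, 9.61, 9.88 and 9.43 in LLC and 7.71, 7.03, 7.55 and 7.71 in SLC, a wide gap with no overlap. The difference was 2.24 (SE 0.18, limma adjusted p = 9.46e-05), or 4.72-fold. The adhesion receptor gene ICAM1 (-1.93, SE 0.27, adjusted p = 0.00124), THBS1, of the angiogenesis inhibitor thrombospondin 1 (-1.76, SE 0.36, adjusted p = 0.00786), and TGFB1 (-0.60, SE 0.11, adjusted p = 0.00458) were higher in SLC. PDGFA was higher in LLC (0.63, adjusted p = 0.0258), with an adjusted p of 0.0514 to 0.0611 without SLC replicate 1 or LLC replicate 1, 2 or 3.

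Heat-shock genes, which respond to protein damage and warming, were mixed as well. Of 11 measured, 3 were called higher in SLC and 1 higher in LLC, and the median was -0.31. HSPA1A, the inducible HSP70, had signals of 9.03, 9.31, 8.56 and 9.06 in SLC and 7.68, 8.23, 7.13 and 8.24 in LLC. Replicate 3 was again the lowest array of both cell types, and the cell types did not overlap. The difference was -1.17 (SE 0.25, limma adjusted p = 0.00977). HSPB8 (-0.92, adjusted p = 0.0166) and its partner BAG3 (-0.49, adjusted p = 0.0162) were also higher in SLC, and HSPE1, of the mitochondrial chaperonin HSP10, was higher in LLC (0.60, SE 0.12, adjusted p = 0.00578). Without SLC replicate 4 the adjusted p of HSPB8 and BAG3 was 0.0521 for both, and there, as without variance moderation, the SLC count was 1.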

How the data were processed

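RNA of 4 SLC and 4 LLC samples was hybridised to 1 array each. The authors made the deposited log2 signals with RMA (version not given in the sources used here) in Transcriptome Analysis Console 4.0, and these were used as deposited. Of 24415 clusters, 18550 had 1 symbol in the platform annotation, 595 several and 5270 none, and 18074 with 1 symbol were matched to RefSeq (ARS-UCD2.0), with no change. Where clusters shared a symbol, that with the highest mean over all arrays stood for it. LLC and SLC were compared in limma 3.58.1 (R 4.3.3) by lmFit and eBayes, with no covariate and Benjamini-Hochberg adjustment over all clusters. The fit was tested on simulated data. Array number and signal over background limit the precision. No 2 arrays were identical.

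The genes, lists and tests were chosen with earlier results of these data known. Named genes were the 10 members, in each list up to 4 called genes by the size of the moderated t, the 3 nearest genes of FOS, JUN, EGR1 and each called member, and the cell markers. Others are named for counts of 5 or fewer or, where stated, after their values were seen. Listed genes without a cluster of their own symbol were not analysed here. Alternatives were 2 other normalizations, a filter under the 40th percentile, a replicate block, each array left out, a trend with robust eBayes, array weights, no variance moderation, adjustment over symbols alone, low signals held at the background limit, the mean of all clusters, and treat.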

Additional observations from a re-analysis of the deposited data

Results flagged for a closer look

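Among 150 groups of 4 arrays examined (members, named genes and ratios in each cell type), 8 had 1 array far from the other 3. Chance gives about 1 in 20 for independent groups. These groups are not independent, since the ratios reuse the members and the near genes were picked by their course on the same arrays. The count therefore cannot decide whether chance alone gave it. EGR1 was at 9.70 on SLC replicate 3 and at 10 to 10.06 on the other SLC arrays. EGR2 was at 3.25 on LLC replicate 3 and at 3.84 to 3.93 on the other LLC arrays. MAFK was at 3.32 on LLC replicate 1 and at 3.79 to 3.88 on the others. SP1 was at 5.89 on LLC replicate 4 and at 5.51 to 5.57 on the others. PDGFA was at 3.15 on SLC replicate 1 and at 3.68 to 3.69 on the other SLC arrays. PRPSAP1, near to FOS in its course, was at 5.81 on SLC replicate 3 and at 6.05 to 6.07 on the other SLC arrays. ESAM, near to FOSB, was at 3.57 on LLC replicate 3 and at 4.33 to 4.35 on the other LLC arrays. The log2 ratio of FOSL2 over FOSL1 was 1.69 on SLC replicate 4 and 2.24 to 2.31 on the other SLC arrays.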

How the results depend on the processing

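FOSB and JUND were called in 18 of 18 alternatives and FOS, FOSL1, FOSL2 and EGR2 in 0 of 18. No member's difference changed sign. Each member has 1 cluster, so the alternative with the mean of all clusters could not alter its difference. The members called ranged from 2 to 4. The single member past the fold filter, FOSB, became 0 with treat against a fold of 2 and 0 to 1 with an array left out (0 without LLC replicate 3). Without variance moderation 1594 clusters instead of 2481 were called higher in SLC, and with an array left out 1822 to 2818. The 53 pathway genes higher in SLC became 30 without moderation, 34 with low signals held at the limit and 34 to 57 with an array left out (34 without SLC replicate 4). The 8 higher in LLC became 5, 5 and 4 to 8 (4 without SLC replicate 1, 5 without LLC replicate 3). Ratios that changed sign, none of them past the test, were, with an array left out, JUND over JUN (-0.16 to 0.019, above 0 without LLC replicate 2), EGR3 over EGR1 (-0.054 to 0.30, below 0 without LLC replicate 1) and EGR3 over EGR2 (-0.15 to 0.17, above 0 without SLC replicate 2 or 3 or LLC replicate 2 or 4, and 0.12 with low signals held at the limit). The cause was not tested. Of 953 values of 53 named genes outside the 10, 831 kept their direction and side of the threshold, 114 lost a call, 8 gained one and 0 changed sign.

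With the replicate number as a block, 3 members were called, 0 ratios passed, the pathway genes called numbered 56 (SLC) and 4 (LLC), and the clusters called 2303 and 2033. Whether a number marks a shared cow is not given in the sources used here. The methods name no pairing, so the arrays were not treated as pairs. Over all clusters the deviations of same-numbered arrays correlated at -0.13, -0.07, 0.17 and 0.01. Only SLC replicate 3 correlated best with its own number, and SLC replicates 1, 2 and 4 did so with LLC replicates 3, 1 and 2. With so few arrays, these correlations cannot decide whether a number marks a shared cow. The lowest adjusted p of FOS, 0.0738, came with this block. EGR3 and EGR4 are limited by signals near background.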
